A study of Mus musculus with 37 samples.

Results

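The transcripts described here belong to 9 genes of peroxisome assembly and of transport across the peroxisomal membrane in mouse liver: the peroxins Pex11a, Pex11g, Pex5, Pex13, Pex14, Pex16 and Pex19 and the ATP-binding cassette (ABC) transporters Abcd2 and Abcd3. They were taken by name, as all probes that carry one of these symbols, which gave 11 of the 30146 probes and 9 of the 21450 genes counted. The 9 genes were chosen with earlier results of these data known. All 11 probes passed the filter on low counts and were among the 18570 probes tested. Pex11a and Pex13 were each read by 2 probes and the other genes by 1.

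Livers came from wild-type Crl:CD1(ICR) mice, labelled CD1, of a reproduction study, given deionized water (vehicle, 0 mg/kg) or HFPO-DA, a fluorinated polymerization aid administered as its ammonium salt in water, by daily oral gavage at a low dose of 0.1, a middle dose of 0.5 or a high dose of 5 mg per kg body weight. Dosing of males began 70 days before pairing, at an age of about 6 weeks, and the 84 to 85 doses ended with the mating period. In females the first of 53 to 65 doses came 14 days before pairing, at an age of about 11 weeks, and the last on lactation day 20 or 21. Therefore sex, reproductive state, age and number of doses cannot be told apart in any comparison of females with males. Probe counts were available for 5 males each at 0, 0.1 and 0.5 mg/kg and 4 at 5 mg/kg, and for 5 females each at 0 and 0.1 mg/kg and 4 each at 0.5 and 5 mg/kg. Each library was a liver section of a separate animal, formalin fixed and paraffin embedded, read by TempO-Seq, in which pairs of short probes are joined on an RNA and the joined product is counted.

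Peroxisomes oxidise very long chain and branched fatty acids and are abundant in hepatocytes. Their matrix enzymes are made in the cytosol, mostly bound by the receptor PEX5, and passed through a docking complex in the membrane that contains PEX13 and PEX14. Their membrane proteins are recognised by the soluble chaperone PEX19 and inserted with the help of PEX16. Proteins of the PEX11 family elongate the membrane before a peroxisome divides, and the half-transporters ABCD2 and ABCD3 carry activated fatty acids into the organelle. In rodent liver the nuclear receptor PPARα controls many genes of peroxisomal fatty acid oxidation and is the classical target of peroxisome proliferators.

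Promoters are shown for the 2 genes with counts that rose at 0.5 mg/kg in males, Pex11a and Abcd3, and for Pex11g, a Pex11a relative for which no dose passed the test. Pex11g had few counts, so that a change of several fold could have gone undetected. Each run is the 250 bases before the gene's start in RefSeq, 5′ to 3′ on the gene's strand, on mouse build GRCm38.p6. All 3 genes lie on the minus strand. For Pex11g the RefSeq start lies inside the gene span given below, which comes from GENCODE and ends at 3467680. The last bases of its run, with the GC box, thus overlap that span. Capitals mark 2 motifs on either strand: AGGTCA, the half-site bound by nuclear receptors, and GGGCGG, the GC box.
Pex11a chr7:79743132-79743381: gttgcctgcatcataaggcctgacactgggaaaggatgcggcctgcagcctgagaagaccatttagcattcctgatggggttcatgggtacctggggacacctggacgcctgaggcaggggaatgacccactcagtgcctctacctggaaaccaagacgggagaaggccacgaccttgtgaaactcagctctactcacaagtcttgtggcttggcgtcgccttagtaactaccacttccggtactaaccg
Abcd3 chr3:121815303-121815552: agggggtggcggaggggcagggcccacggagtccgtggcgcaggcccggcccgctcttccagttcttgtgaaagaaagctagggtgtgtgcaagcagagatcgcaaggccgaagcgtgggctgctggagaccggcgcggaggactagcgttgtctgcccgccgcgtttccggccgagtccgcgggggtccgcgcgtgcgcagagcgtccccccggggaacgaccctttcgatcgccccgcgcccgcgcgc
Pex11g chr8:3467649-3467898: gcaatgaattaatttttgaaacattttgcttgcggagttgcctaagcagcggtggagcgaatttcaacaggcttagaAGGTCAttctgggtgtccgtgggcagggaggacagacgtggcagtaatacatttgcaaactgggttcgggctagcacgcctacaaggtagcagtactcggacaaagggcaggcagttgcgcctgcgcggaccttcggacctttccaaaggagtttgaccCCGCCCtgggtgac
The promoters of Pex11a and Abcd3 held neither motif in these 250 bases, whereas that of Pex11g held 1 of each. Over the 11 promoter entries of the 7 genes with an entry, the half-site was found only in Pex11g, and 14.0% of all 32851 promoters of that length held it. No entry held the half-site as a direct repeat with 1 base between the copies, also when the fourth base of each copy was left free; 0.0335% and 0.338% of all promoters held these arrangements. GC boxes were found in 6 of the 11 entries, from Pex5, Pex13, Pex14, Pex16 and Pex11g, against 32.7% of all promoters. The Pex5 entries with a GC box overlap in position and share some of these boxes, so the 11 entries are not independent. The Abcd3 run was rich in CG pairs, with 34, and that of Pex11a had 8, beside a median of 6 over all promoters. Pex19 and Abcd2 were not matched.

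At 5 mg/kg a gene of peroxisome division (Pex11a), one of membrane assembly (Pex16) and one of fatty acid import (Abcd3) rose against vehicle in both sexes, and Pex14 and Pex19 in males and Pex5 in females. In males, Pex11a rose 4.50-fold, Abcd3 2.92-fold, Pex14 1.88-fold, Pex19 1.71-fold and Pex16 1.64-fold. In females, Pex11a rose 8.54-fold, Abcd3 3.07-fold, Pex5 1.86-fold and Pex16 1.56-fold. At 0.5 mg/kg Pex11a rose in both sexes and Abcd3 in males, and no probe of these genes was lower than vehicle beyond the test's threshold at any dose.

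Calls were made with edgeR's quasi-likelihood test at an adjusted p under 0.10, the Benjamini-Hochberg adjustment covering all 18570 probes of a comparison. In males at 5 mg/kg, 7 of the 11 probes, from 6 genes, rose, where 4.21% of all probes tested did. In females at 5 mg/kg, 5 of 11 probes from 4 genes rose, against 2.26% of all probes. The counts at 0.5 mg/kg were 2 of 11 in males, with 0.382% of all probes raised, and 1 of 11 in females, with 0.108% raised. None of the 11 was lowered at these doses by edgeR, where 0.242% and 8.49% of all probes were in males at 0.5 and then 5 mg/kg, and 0.00539% and 2.26% in females. Probes whose treated mice all read above all vehicle mice numbered 2 and 6 of 11 in males at 0.5 and then 5 mg/kg (0.652% and 2.78% of all probes) and 2 and 7 of 11 in females (1.52% and 4.4%). At 0.1 mg/kg no probe of these genes passed in either sex, nor did any other probe (0% in each), by edgeR; DESeq2 called none of the 11 either. Only Abcd3 in males and Pex11a in females had an unadjusted p under 0.05 at that dose, where 7.14% and 2.38% of all probes did. The median log2 fold change of the 11 probes at 5 mg/kg was 0.91 in males and 0.64 in females, beside -0.12 and -0.01 over all probes tested.

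**Figure D1:**
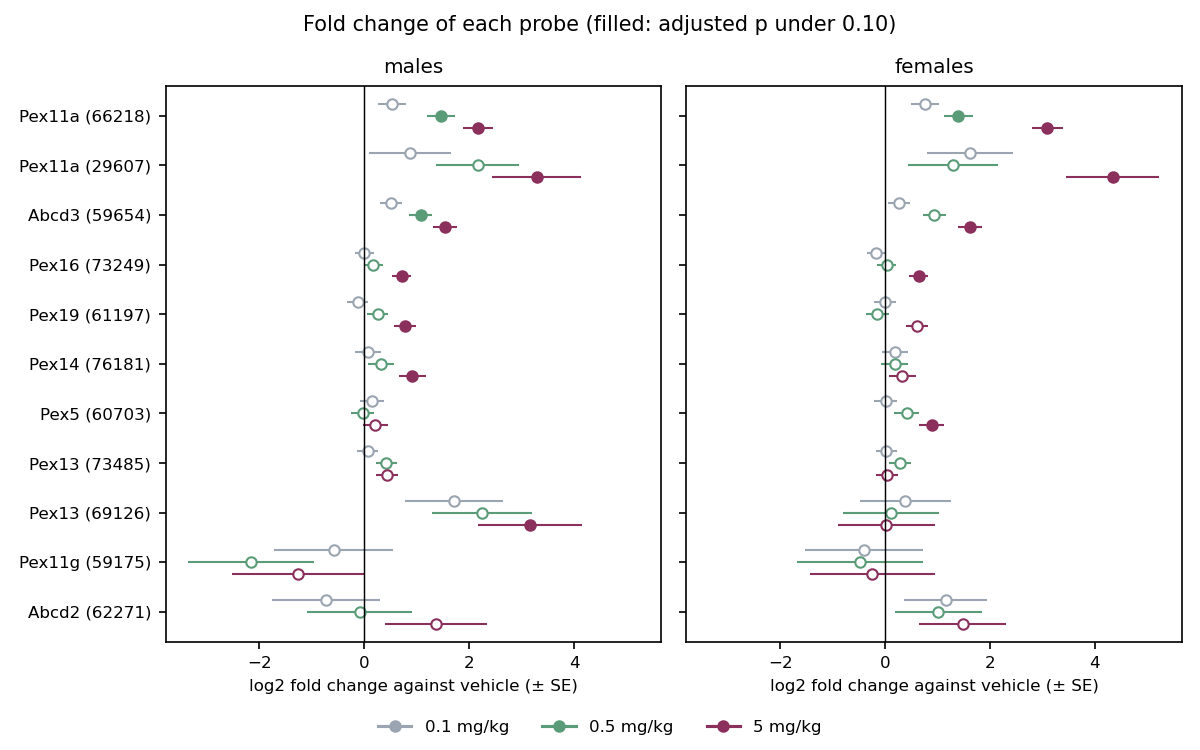
Log2 fold change of each of the 11 probes against vehicle (x axis, ± SE) for each dose (colour) in males and females, with probes named on the y axis by gene and probe number. Filled points passed an adjusted p under 0.10. At 5 mg/kg these are 7 male and 5 female points, at 0.5 mg/kg 2 and 1, and at 0.1 mg/kg there are none.

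Library totals ranged from 2101495 to 10548222 counts in the 19 males and from 7952605 to 13878254 in the 18 females, and 2 males (0.5 mg/kg replicate 2 and 5 mg/kg replicate 3) were under 3000000. Depth was lower at the high dose in males, with a median total of 5117935 against 8012441 with vehicle. Probes detected there numbered 11446 to 14939 against 14630 to 17917. In females the median totals were 10380108 and 10232093. The hepatocyte marker genes, 6 of 8 listed, were counted in every group, with a summed normalized level of 11435 to 22607 counts per 1000000 (CPM). Their medians were 16450 CPM in vehicle males and 12560 at 5 mg/kg, and 21478 and 15780 in females, while the summed level of 8 stellate cell and fibroblast markers had medians of 203 and 384 CPM in males and 269 and 471 in females, with overlapping ranges in each case. No listed marker of macrophages (9), endothelium (7), bile ducts (6) or lymphocytes (7) was at 0 in all mice, and their summed levels spanned 68.6 to 395, 239 to 427, 11.2 to 157 and 6.53 to 46.0 CPM over all groups. Within single groups some had no count: 8 to 9 macrophage, 3 to 6 bile duct and 5 to 7 lymphocyte markers were counted. Without the 2 males under 3000000 counts the numbers of the 11 probes called in males were again 2 at 0.5 mg/kg and 7 at 5 mg/kg. The part of these shifts in marker levels in the results below was not tested, and in a bulk sample fewer cells of a type and less RNA per cell cannot be told apart.

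Pex11a, on chromosome 7 (79735957 to 79743131, minus strand, GRCm38), encodes a membrane-elongating peroxin and had the largest called fold change of the 9 genes in both sexes, each read by its leading probe, the one with the most counts. In CPM, its leading probe read 15.4, 24.6, 25.1, 31 and 32.7 in vehicle males, 21.2, 23, 45.1, 47.4 and 47.9 at 0.1 mg/kg, 40.9, 47.4, 70.9, 83.6 and 112 at the middle dose and 99.4, 112, 121 and 131 at 5 mg/kg. Every male at 0.5 and 5 mg/kg was above every vehicle male, whereas 2 of the 5 males at 0.1 mg/kg lay within the vehicle range. Male log2 fold changes were 0.52 ± 0.26 (SE) at 0.1 mg/kg (adjusted p = 0.715), 1.46 ± 0.27 (SE) at 0.5 mg/kg (adjusted p = 0.00202) and 2.17 ± 0.28 (SE) at 5 mg/kg (adjusted p = 3.81e-07). In females the same probe read 12.7, 12.8, 14.2, 16.2 and 23.1 CPM with vehicle, 16.9, 22.6, 23.3, 32.2 and 38.2 at 0.1 mg/kg, 31.5, 41, 43.7 and 50.3 at the middle dose and 111, 112, 125 and 192 at 5 mg/kg. The female groups at 0.5 and 5 mg/kg overlapped neither the vehicle group nor each other. Female log2 fold changes were 0.75 ± 0.26 (SE) (adjusted p = 1), 1.40 ± 0.28 (SE) (adjusted p = 0.0120) and 3.10 ± 0.29 (SE) (adjusted p = 2.34e-10) at the 3 doses. The call in females at 0.5 mg/kg was lost without 0.5 mg/kg replicate 4 (log2 fold change 1.29, adjusted p = 0.101), over a range of 0.000288 to 0.101 for all alternatives tried.

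The second Pex11a probe had few counts and rose at the top dose as well. It read 0, 1.33, 1.47, 1.56 and 4.80 CPM in vehicle males and 12, 12.5, 13.6 and 34.5 at 5 mg/kg, and 0, 0, 0.936, 0.984 and 1.05 in vehicle females and 6.18, 12.1, 14.9 and 15.5 at 5 mg/kg. The 5 mg/kg mice of each sex were all above their vehicle group. The rises were 3.29 ± 0.85 (SE) on the log2 scale for males (adjusted p = 0.00895) and 4.34 ± 0.89 (SE) for females (adjusted p = 0.00128), with 95% confidence intervals of 1.58 to 4.99 and 2.54 to 6.14 that contained the values of the leading probe. At 0.1 and 0.5 mg/kg its log2 fold changes lay between 0.88 and 2.16, and none passed.

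**Figure D2:**
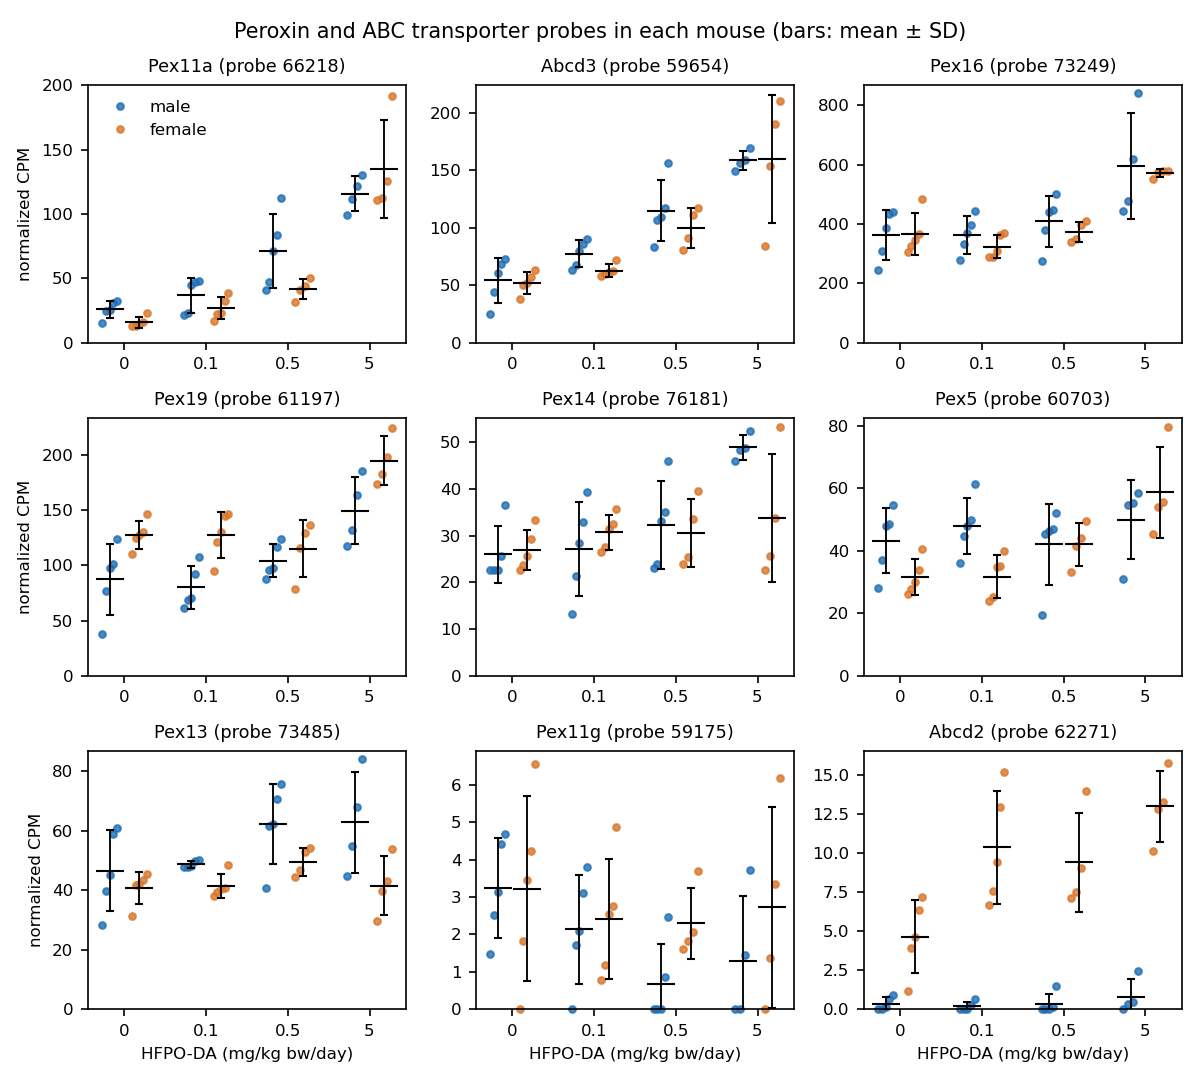
Normalized CPM (y axis, linear, from 0, a separate scale in each panel) of the leading probe of each of the 9 genes in every mouse, by dose (x axis) and sex, with the mean ± SD of each group as bars. Pex11a and Abcd3 are higher at 5 mg/kg than with vehicle in all 4 mice of each sex, Pex11g stays under 7 CPM, and Abcd2 is under 3 CPM in every male.

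Pex11g (chromosome 8, 3457105 to 3467680, minus strand) belongs to the same family and was read at the lower end of the measurable range. Its probe read 1.46, 2.52, 3.13, 4.41 and 4.68 CPM in vehicle males, 0, 0, 0, 0.863 and 2.46 at 0.5 mg/kg and 0, 0, 1.43 and 3.71 at 5 mg/kg, with 3 and 2 males at a count of 0 in the latter groups. Vehicle females read 0, 1.83, 3.46, 4.23 and 6.55 CPM and those at 5 mg/kg 0, 1.36, 3.34 and 6.18. The groups overlapped in each sex. The log2 fold changes at 5 mg/kg were -1.26 ± 1.25 (SE) for males (adjusted p = 0.618) and -0.24 ± 1.20 (SE) for females (adjusted p = 1). Intervals this wide (-3.78 to 1.26 and -2.66 to 2.18) leave changes of several fold either way undetectable at this depth.

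Of the import genes, Pex14 was called in males and Pex5 in females, both at 5 mg/kg only, and the leading Pex13 probe in neither sex. PEX14 (gene on chromosome 4, 148960535 to 149099876, minus strand) is the membrane anchor at which loaded PEX5 docks. The Pex14 probe read 22.6, 22.6, 22.7, 25.5 and 36.5 CPM in vehicle males and 46, 48.4, 48.8 and 52.4 at 5 mg/kg, and 22.7, 23.8, 25.7, 29.3 and 33.3 in vehicle females and 22.6, 25.6, 33.7 and 53.3 at 5 mg/kg. All 4 males at 5 mg/kg were above all vehicle males, with little spread among them, whereas among the 4 females 2 were above the vehicle range, 1 was within it and 1 just below. Pex14 rose by 0.91 ± 0.26 (SE) on the log2 scale in males (adjusted p = 0.0196), and the female value was 0.33 ± 0.26 (SE) (adjusted p = 0.817). The call in males held under all alternatives tried, with adjusted p from 0.00138 to 0.0792. At 0.1 and 0.5 mg/kg the probe read 13.3 to 46.1 CPM in males and 23.9 to 39.5 in females, and none of the 4 comparisons passed.

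PEX5 (gene on chromosome 6, 124396816 to 124415067, minus strand) is the cycling receptor for matrix proteins. Its probe read 26.1, 27.7, 29.9, 33.9 and 40.5 CPM in vehicle females, 33.1, 41.6, 44 and 49.6 at 0.5 mg/kg and 45.5, 54.1, 55.5 and 79.6 at 5 mg/kg. Every female at 5 mg/kg was above every vehicle female, and those at 0.5 mg/kg overlapped the vehicle group. The rise at 5 mg/kg was 0.89 ± 0.24 (SE) on the log2 scale (adjusted p = 0.0223). Without 5 mg/kg replicate 2, the highest female, the value was 0.69 with an adjusted p of 0.195, over a range of 0.00231 to 0.195 for all alternatives. Males read 28.2, 37.1, 47.9, 48.6 and 54.6 CPM with vehicle and 31.1, 54.7, 55.4 and 58.6 at 5 mg/kg. These male groups overlapped, and the log2 fold change was 0.21 ± 0.24 (SE) (adjusted p = 0.682). The lowest male value at 0.5 and that at 5 mg/kg came from the 2 libraries under 3000000 counts.

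PEX13 (gene on chromosome 11, 23646479 to 23665959, minus strand) forms the docking complex with PEX14. Its leading probe read 28.1, 39.7, 45.2, 58.8 and 60.9 CPM in vehicle males and 44.8, 54.8, 68 and 84.1 at 5 mg/kg, and 31.4, 41.8, 42, 43.4 and 45.4 in vehicle females and 29.6, 39.7, 43.1 and 53.9 at 5 mg/kg. The groups overlapped in both sexes. Log2 fold changes were 0.44 ± 0.21 (SE) for males (adjusted p = 0.195) and 0.03 ± 0.21 (SE) for females (adjusted p = 1). In males it passed with summed probes (0.54, adjusted p = 0.0805) and with DESeq2 (0.53, adjusted p = 0.0769), over a range of 0.0769 to 0.559. The second Pex13 probe had raw counts of 0, 0, 2, 3 and 13 in vehicle males and 5, 20, 33 and 34 at 5 mg/kg. Its rise of 3.16 ± 0.99 (SE) on the log2 scale (adjusted p = 0.0385) rested on these few counts and was lost without 5 mg/kg replicate 1 (2.68, adjusted p = 0.109) and with each sex fitted apart (adjusted p = 0.300), the range over all alternatives being 0.00146 to 0.300. In females that probe read 1.47, 3.08, 3.56, 3.64 and 4.61 CPM with vehicle and 1.52, 1.82, 4.08 and 5.88 at 5 mg/kg, with a fitted log2 difference of 0.03 ± 0.92 (SE) (adjusted p = 1). The 2 probes thus gave different values for this gene in males (0.44 and 3.16) and alike values in females (0.03 for each), and the GENCODE M21 annotation places 286 bases of it over Pus10 on the opposite strand. Where the probes lie was not analysed here.

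The genes of membrane protein insertion had fold changes below 2 at 5 mg/kg. PEX16 (gene on chromosome 2, 92374676 to 92381217, plus strand) is an integral membrane protein that receives PEX19 with its cargo. Its probe read 246, 308, 386, 435 and 440.4 CPM in vehicle males, 277, 381, 441, 448 and 501 at 0.5 mg/kg and 444, 479, 620.1 and 841 at 5 mg/kg. Among females it read 305, 327, 347, 367 and 485 CPM with vehicle, 339, 349, 395 and 411 at 0.5 mg/kg and 552, 575, 580.3 and 580.4 at 5 mg/kg. All mice at 5 mg/kg were above all vehicle mice of their sex, and the 0.5 mg/kg groups overlapped them. Pex16 rose by 0.72 ± 0.18 (SE) on the log2 scale for males (adjusted p = 0.00887) and by 0.64 ± 0.18 (SE) for females (adjusted p = 0.0357). The male call was lost without 5 mg/kg replicate 2, the highest male (0.47, adjusted p = 0.116, over a range of 8.35e-05 to 0.116), and the female call was lost without vehicle replicate 2, 4 or 5 or 5 mg/kg replicate 3 (log2 fold changes of 0.61, 0.61, 0.58 and 0.64 and adjusted p of 0.102, 0.112, 0.110 and 0.100, over a range of 0.00261 to 0.112). Its annotated span overlaps Large2 on the opposite strand by 194 bases. Overlapping genes without a probe were also annotated for other members. On the same strand these were Gm43609 (2712 bases) and 4633401B06Rik (1073 bases) over Abcd3. On the opposite strand they were Gm44706 over Pex11a (1339 bases), Gm44775 over Pex11g (1456 bases), and Gm17029 (24137 bases) and Gm9506 (320 bases) over Pex14.

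PEX19 (gene on chromosome 1, 172126755 to 172136493, plus strand) binds membrane proteins in the cytosol. In males its probe read 38.1, 76.9, 97.3, 101 and 124 CPM with vehicle and 118, 132, 164 and 185 at 5 mg/kg. One vehicle male (replicate 1) lay within the range of the 5 mg/kg males and the other 4 below it. The rise was 0.78 ± 0.22 (SE) on the log2 scale (adjusted p = 0.0170), with adjusted p from 0.00101 to 0.0939 over all alternatives. Females read 110.0, 125, 127, 129.8 and 146 CPM with vehicle, 78.9, 116, 129 and 137 at 0.5 mg/kg and 173, 183, 198 and 224 at 5 mg/kg. Here the 5 mg/kg group lay wholly above both, yet the log2 fold change of 0.61 ± 0.21 (SE) did not pass (adjusted p = 0.134). It passed with each sex fitted apart (adjusted p = 0.0205), with DESeq2 (0.0448), with counts thinned to the smallest total (0.0612) and without vehicle male replicate 3 (0.0714), the lowest male, over a range of 0.0205 to 0.376.

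ABCD3 (gene on chromosome 3, 121758774 to 121815302, minus strand), also known as PMP70, is the most abundant protein of the peroxisomal membrane in liver. Its probe read 25.3, 44.5, 60.5, 68.1 and 73.2 CPM in vehicle males, 63, 68, 80.0, 86 and 90.3 at 0.1 mg/kg, 83.3, 107, 109, 117 and 156 at the middle dose and 149.5, 156, 159 and 169.5 at 5 mg/kg. Males at 0.5 and 5 mg/kg lay wholly above the vehicle group, and those at 0.1 mg/kg overlapped it. Male log2 fold changes were 0.51 ± 0.22 (SE) (adjusted p = 0.630), 1.08 ± 0.22 (SE) (adjusted p = 0.00723) and 1.55 ± 0.23 (SE) (adjusted p = 4.86e-06) at the 3 doses. Females read 37.7, 50.4, 51.9, 57.2 and 62.8 CPM with vehicle, 57.9, 59.7, 61, 62.6 and 72.1 at 0.1 mg/kg, 80.4, 90.7, 111 and 117 at the middle dose and 84.2, 154, 190.1 and 210.4 at 5 mg/kg. Both upper dose groups again lay wholly above vehicle, although replicate 2 at 5 mg/kg (84.2 CPM) read less than most females at 0.5 mg/kg. The female log2 fold changes were 0.27 ± 0.21 (SE) (adjusted p = 1), 0.94 ± 0.23 (SE) (adjusted p = 0.117) and 1.62 ± 0.23 (SE) (adjusted p = 2.81e-06). The value at 0.5 mg/kg stood just outside the threshold: over the alternatives its adjusted p ranged from 0.00902 to 0.642, and it passed with summed probes, DESeq2, no filter, each sex fitted apart, a floor of 10 on the mean count or a robust fit, and without vehicle female replicate 1 (0.0976), female 5 mg/kg replicate 2 (0.0619) or vehicle male replicate 2 (0.0392).

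Abcd2 (chromosome 15, 91145871 to 91191799, minus strand) encodes a half-transporter for very long chain fatty acids and was the only one of the 9 genes with a called difference between vehicle females and vehicle males. Raw counts were 0, 0, 1, 5 and 7 in vehicle males and 11, 42, 47, 70 and 76 in vehicle females, or 0, 0, 0.134, 0.664 and 0.908 and 1.15, 3.93, 4.62, 6.33 and 7.17 CPM. All 5 vehicle females were above all 5 vehicle males. The difference was 3.71 ± 0.93 (SE) on the log2 scale (13.1-fold, 95% confidence interval 3.58 to 47.9, adjusted p = 0.0189), in a comparison where 1.36% of all probes were higher in females. The Abcd2 probe passed the filter on low counts through the female groups and was not kept when males were filtered apart. With at most 7 counts in a vehicle male, the size of the difference is poorly fixed. From the low to the high dose females read 6.67, 7.55, 9.45, 13 and 15.2, 7.12, 7.48, 9.02 and 14 and 10.1, 12.8, 13.3 and 15.8 CPM. The 4 females at 5 mg/kg were above every vehicle female, but the log2 fold change of 1.48 ± 0.83 (SE) did not pass (adjusted p = 0.522); it passed only with each sex fitted apart (adjusted p = 0.0113, over a range of 0.0113 to 0.747). Across the 19 males 9 libraries held no Abcd2 count and the highest, at 5 mg/kg, held 22, so a change with dose in males was not detectable at this depth (1.36 ± 0.97 (SE), adjusted p = 0.431).

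Neighbouring doses separated only in part. From 0.5 to 5 mg/kg, Pex11a rose in females by 1.70 ± 0.30 (SE) on the log2 scale (adjusted p = 0.000477), the only 1 of the 11 probes called, where 0.635% of all probes rose. In males the corresponding step for Pex11a was 0.71 ± 0.27 (SE) (adjusted p = 0.123), and the only probe called was that of Pex16 (0.54 ± 0.18 (SE), adjusted p = 0.0767), where 3.16% of all probes rose. This Pex16 call was lost in 22 of the 37 fits that each left out 1 mouse. From 0.1 to 0.5 mg/kg edgeR called none of the 11 probes in either sex, with 2 in each at an unadjusted p under 0.05 (8.49% of all probes in males and 3.49% in females) and 0.0969% and 0.07% of all probes raised, and DESeq2 called Pex11a in males. For Pex11a these steps were 0.94 ± 0.26 (SE) in males and 0.64 ± 0.27 (SE) in females, and for Abcd3 0.57 ± 0.22 (SE) and 0.67 ± 0.23 (SE). The means of the leading Pex11a probe were ordered by dose from vehicle to the high dose in both sexes, and of the steps between neighbouring doses only the last in females passed the adjusted threshold. The sparse second probe had female means of 0.594, 1.85, 1.46 and 12.2 CPM in that order.

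Whether the dose effect differed between females and males was tested directly as an interaction. None of the 11 probes passed at any dose by edgeR or by DESeq2, where 0%, 0.0108% and 0.63% of all probes did by edgeR from the low to the high dose. Of the 11, 0, 0 and 2 had an unadjusted p under 0.05, against 4.46%, 5.13% and 10.7% of all probes. Those 2 were Pex11a at 5 mg/kg, with an effect larger by 0.93 ± 0.39 (SE) on the log2 scale in females (edgeR's adjusted p = 0.392), and the sparse second Pex13 probe, with a difference of -3.13 ± 1.35 (SE) (adjusted p = 0.396). The median difference over all probes at 5 mg/kg was 0.12. For Pex5, Pex14 and Pex19, called in 1 sex each, the differences were 0.68 (95% confidence interval -0.01 to 1.37), -0.58 (-1.32 to 0.15) and -0.17 (-0.78 to 0.45). For Abcd3 the difference was 0.07 (-0.58 to 0.72) and for Pex16 -0.07 (-0.60 to 0.45). Without treatment, Pex11a was -0.71 on the log2 scale in females relative to males and Pex19 0.55, neither past the threshold (adjusted p = 0.227 and 0.226).

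Other genes, listed as linked to the peroxisomal membrane or to peroxisome formation, had medians close to 0. The list was not limited to genes that act only at peroxisomes. Of 24 such genes listed (other peroxins, fission factors, membrane channels and ABC transporters), 22 were tested by their leading probe. At 5 mg/kg 3 rose and 1 fell in males, and 2 rose and 1 fell in females, with medians of -0.06 and -0.04 on the log2 scale, the shares raised and lowered over all probes being 4.21% and 8.49% for males and 2.26% each for females. None was called at 0.1 or 0.5 mg/kg. The 9 genes above, on their leading probes, had 5 and 4 raised with medians of 0.78 and 0.64, and the median over all leading probes was -0.11 in males and -0.02 in females. Both groups of genes were chosen with earlier results of these data known. Their contrast is therefore a description and not a test. Acbd5, a tether of peroxisomes to the endoplasmic reticulum, rose in females by 0.89 (adjusted p = 0.0207) and read -0.07 in males (adjusted p = 0.919). Pxmp4, a membrane protein, rose in males by 1.14 (adjusted p = 0.00338), and Tmem135, another membrane protein, rose by 0.72 in males (adjusted p = 0.00311) and by 0.59 in females (adjusted p = 0.0311). The only member to fall was Pxmp2, a channel-forming membrane protein, by 0.95 in males (adjusted p = 9.31e-05) and by 0.60 in females (adjusted p = 0.0271).

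Genes listed as matrix enzymes went in both directions. Of 35 listed, 33 were tested, and at 5 mg/kg 10 rose and 6 fell in males (median 0.18), and 12 rose and 2 fell in females (median 0.56). Over all probes 4.21% rose and 8.49% fell in males, and 2.26% rose and 2.26% fell in females. At 0.5 mg/kg 6 male and 5 female values rose, against 0.382% and 0.108% of all probes, and at 0.1 mg/kg none passed by edgeR. The smallest adjusted p belonged to enzymes of fatty acid oxidation. Ehhadh, the bifunctional enzyme, rose by 5.51 on the log2 scale in males and 5.03 in females. The thiolases Acaa1a (1.66 and 2.34) and Acaa1b (3.38 and 3.48) and the isomerase Eci2 (1.19 and 1.60) followed. Set beside these, the rises of Pex11a were 2.17 and 3.10 and those of Abcd3 1.55 and 1.62.

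**Figure D3:**
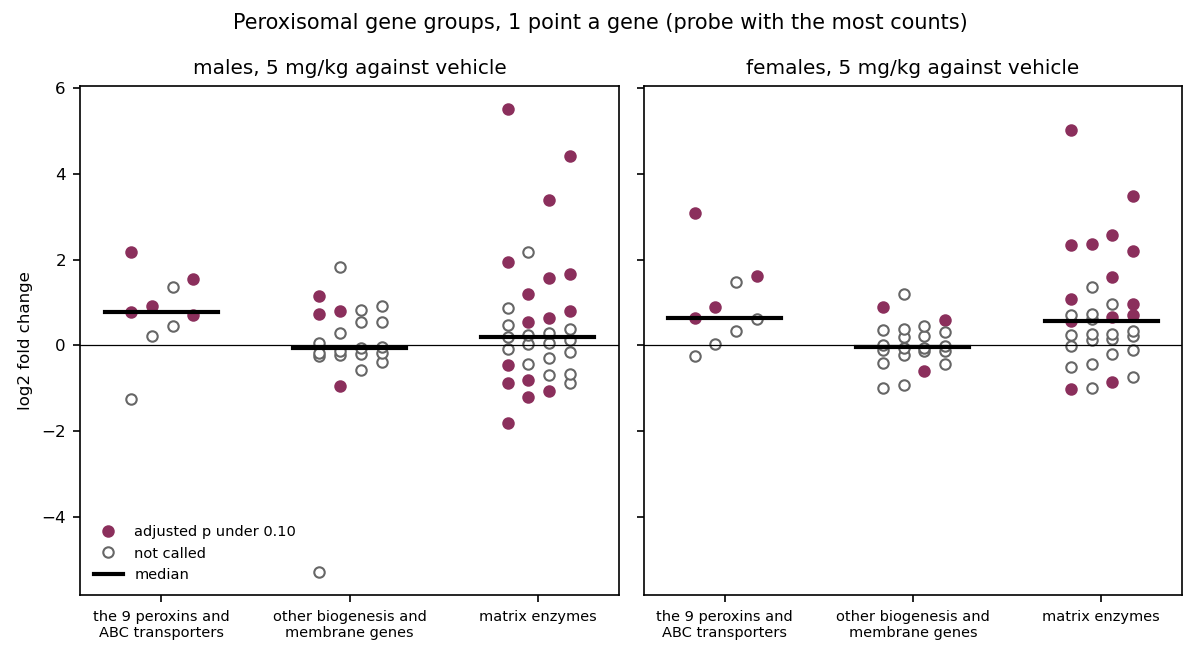
Log2 fold change at 5 mg/kg against vehicle (y axis) of the leading probe of each gene in 3 groups, for males and females, with called genes filled and the group median as a line. The 9 peroxins and ABC transporters have medians of 0.78 and 0.64, the other biogenesis and membrane genes -0.06 and -0.04, and the matrix enzymes 0.18 and 0.56. All 3 groups were chosen with earlier results of these data known.

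Each gene called at 5 mg/kg was also set beside the 12995 other genes tested, by the root mean square difference of the 6 log2 fold changes against vehicle on leading probes. The 6 values of a gene share their vehicle mice within a sex, so this is a description of likeness and not a test. Nearest to Pex11a were Serpina7, the thyroxine-binding globulin (0.347), Acaa1a (0.398) and Hspb1, a small heat shock protein (0.400). Nearest to Abcd3 were Abhd6, a monoacylglycerol lipase (0.158), Slc25a20, the mitochondrial carnitine carrier (0.185), and Fabp1, the liver fatty acid binding protein (0.202). Pex16 was nearest to H2-Q10 (0.0608), mt-Nd6 (0.0692) and Uchl3 (0.0834). Pex19 was near Col6a3 (0.109) and Maip1 (0.115). Pex14 was nearest to Acot7 (0.0763), Rab24 (0.0808) and Grina (0.0981), and Pex5 to Rack1 (0.0931), Romo1 (0.0934) and Gm10260 (0.107). Small differences are usual for genes with small fold changes, so these distances are not to be ranked between the 6 genes.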

How the data were processed

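The authors counted reads per TempO-Seq probe and deposited raw counts, without normalization, for 37 of 40 mice, having left out 3 of low depth or few probes. Their processing notes name bcl2fastq 2.17.1.14 and Bowtie; the genome build and aligner settings were not given in the sources used here. A probe's gene is the part of its name ahead of the probe number. The fit used edgeR 4.0.16 under R 4.3.3, with filterByExpr (8 groups by sex and dose; 18570 probes of 13004 genes remained), TMM scaling and 1 quasi-likelihood fit with a mean per group over all 37 mice, so that the groups share 1 estimate of spread. The threshold was an adjusted p of 0.10. SE is the log2 fold change divided by the square root of the F statistic, and confidence intervals are at 95%. CPM is the count per 1000000 after TMM scaling and compares mice, not genes, because probes differ in efficiency.

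Mice were grouped by the labels of sex and dose. Replicate numbers only name mice. In the 68 pairs of mice within groups, a chi-square of the counts per degree of freedom was 20.4 to 113.6, so that no pair agreed within sampling noise. The members and all gene lists were chosen with earlier results of these data known. Genes named are all probes of the 9 members, up to 5 genes of each peroxisomal list with the smallest adjusted p at 5 mg/kg, and the 3 nearest genes of each member called there; some of these are not reported here. The fit was tested on simulated data. Alternatives were DESeq2 1.42.0 (its size factors within edgeR, or its own test), summed probes, no filter, each sex fitted apart, thinned counts, a floor of 10 on the mean count, a robust fit, leaving out libraries under 3000000 counts, and leaving out each mouse. Gene positions are from GENCODE M21, promoters from RefSeq. How well each probe tells its gene from relatives (the Pex11 and Abcd families) was not analysed here.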

Additional observations from a re-analysis of the deposited data

Results flagged for a closer look

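Of 88 groups of a probe by sex and dose, 10 held 1 mouse that stood far from the others in its group by Dixon's criterion, which chance meets in about 1 of 20 groups. The 2 males under 3000000 counts accounted for 4 of the 10. At 0.5 mg/kg male replicate 2 (2608954 counts) read 19.6 CPM for Pex5, where the next male read 45.3, and 4.90 CPM for the second Pex13 probe, where the next read 2.30. At 5 mg/kg male replicate 3 (2101495 counts) read 34.5 CPM for the second Pex11a probe against 13.6 in the next, and 31.1 CPM for Pex5 against 54.7. In vehicle males replicate 2 read 1.69 CPM for the second Pex13 probe and replicate 1 read 36.5 CPM for Pex14. Male replicate 1 at 0.5 mg/kg read 1.45 CPM for Abcd2, where the other 4 were at or under 0.123. The leading Pex13 probe read 31.4 CPM in vehicle female replicate 2 and 48.7 CPM in female replicate 3 at 0.1 mg/kg. The second Pex11a probe read 4.17 CPM in female replicate 5 at 0.1 mg/kg, where the next female read 1.51. None of the 10 was the leading Pex11a probe or Abcd3.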

How the results depend on the processing

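Over 46 alternatives at most for each probe, no called log2 fold change at 0.5 or 5 mg/kg changed sign. Of the single-probe values recomputed, 1985 kept their side of the threshold, 16 came to pass it and 9 no longer did. Of the 11 probes, those called in males at 5 mg/kg numbered 6 to 7 without 1 mouse and 6 to 8 under the other alternatives, against 7. In females at 5 mg/kg the ranges were 4 to 6 and 4 to 7, against 5. The 2 calls in males at 0.5 mg/kg stayed 2 in every case. In females at 0.5 mg/kg 1 probe was called, 0 to 2 without 1 mouse, and 2 with summed probes, DESeq2, no filter, each sex fitted apart, a floor of 10 on the mean count or a robust fit. From 0.5 to 5 mg/kg in males 1 probe was called, 0 to 2 without 1 mouse, 3 with DESeq2 size factors, 0 with no filter, with each sex fitted apart or without libraries under 3000000 counts, 2 with summed probes or thinned counts, and 4 with DESeq2. The same step in females gave 1 call, 1 to 2 without 1 mouse, 3 with DESeq2 size factors, a robust fit or thinned counts, 2 with no filter, and 4 with each sex fitted apart or with DESeq2. From 0.1 to 0.5 mg/kg in males DESeq2 gave 1 call in place of 0. Between vehicle females and males 1 probe was called, 1 to 2 without 1 mouse and 2 with thinned counts. Comparisons at 0.1 mg/kg and those of the dose effect between sexes gave 0 throughout. The cause of these differences was not tested. With no filter or with DESeq2, the median log2 fold change in males at 5 mg/kg was higher by 0.12. Those medians were taken over every probe with a count, 28389 with no filter, and not over the same 18570 probes. With DESeq2 size factors within edgeR, on the same 18570 probes, it was higher by 0.09. Depth limits Pex11g, Abcd2 in males and the second Pex13 probe, with summed counts per group of 31 to 162, 8 to 26 and 18 to 267. No paired analysis was possible because the labels number the animals and give no replicate number shared between groups.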
